A study of Mus musculus with 12 samples.

Results

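The Myc and ribosome biogenesis genes described here are 40 genes chosen by name: Myc, its partner Max, the antagonist Mxd1, and 37 genes for factors that make ribosomes. They are 40 of the 54532 genes in the count table, and all 40 passed the filter on low counts, as did 13800 genes in all. Their raw counts ran from 50 for Gar1 in its lowest library to 4402 for Ncl in its highest. The table came from poly(A) RNA of bone marrow-derived macrophages, which are macrophages grown from marrow cells with the growth factor M-CSF at 50 ng/mL. The marrow came from male mice, given as 8 weeks old. Mice of the genotype Itga9-Lyz2-cHet (cHet) were compared with Itga9-Lyz2-cKO mice (cKO). Itga9 encodes the α9 subunit of integrin α9β1, and Lyz2 is the gene whose promoter is widely used to drive Cre recombinase in myeloid cells. The labels do not spell out the alleles, and every group carried the conditional genotype, so no group without it was compared. From each genotype, 3 libraries were untreated controls and 3 were from cells exposed to the stimulus the labels call Pg for 2 h at a multiplicity of infection given as 1:20. The 12 libraries are not said to come from separate mice or cultures, so p-values measure the spread between libraries, which may be technical.

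Library totals ran from 14527674 to 16793803 counts. Itga9 was at 32.3, 17.9 and 18.9 CPM (read counts scaled to library size) in cHet controls and 11.5, 5.98 and 6.42 in cKO controls, a log2 difference of -1.53 ± 0.37 (SE; adjusted p = 0.0497). Under Pg it was at 19.4, 34.0 and 33.4 in cHet and 13.6, 11.6 and 7.84 in cKO, a difference of -1.39 ± 0.36 that did not pass (adjusted p = 0.125). All 8 macrophage markers were present in every library, led by Lyz2 and Csf1r, and their sum was 25572 to 32909 CPM in cHet and 16636 to 22455 in cKO. Of the 8, Lyz2 passed the test between genotypes, lower in cKO by 0.99 in controls and 0.94 under Pg on the log2 scale, and the median difference over the 8 was 0.01 in both conditions. The 8 stromal markers summed to 29.2 to 37.2 CPM in cHet and 2.12 to 5.23 in cKO, with Lum at 0 in all 12 libraries. Neutrophil markers summed to 577 to 989 CPM, and T, NK and B cell markers to 5.16 to 12.4. Within each group 1 library stood apart from the other 2 in its counts over all genes: cHet control 1, cHet Pg 1, cKO control 1 and cKO Pg 3. The part of these differences in the results below was not tested. In bulk RNA, fewer cells of a type and less RNA per cell cannot be told apart.

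MYC is a transcription factor that binds DNA as a dimer with MAX, most tightly at the E-box CACGTG, and genes for ribosome production are among its best known targets. MXD1, MXI1 and MNT compete for MAX and repress at the same sites. Ribosome production starts in the nucleolus, where RNA polymerase I makes the precursor of the ribosomal RNAs, small nucleolar ribonucleoproteins (snoRNPs) guide its modification, and assembly factors cut and fold it into the small and large subunits. In macrophages, Myc is known as a gene induced early by bacterial products and by growth factors. Poly(A) libraries measure the mRNAs of these factors and not ribosomal RNA itself.

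The E-box was looked for in the members' promoters because it is the site through which MYC, MAX and MXD1 are known to act. RefSeq promoters (build GRCm38.p6, 250 bases before to 50 after the start) were matched for 34 of the 40 members. Myc, Rrs1, Npm1, Bop1, Fbl and Rrp12 had no entry and were not scanned. CACGTG reads the same on both strands. It was present in 9 of the 34 members (26.5%), against 11.7% of the 9847 tested genes with a promoter and 7.15% of all 32851 promoters of that length. The 9 were Max, Rrn3, Imp4, Utp20, Wdr43, Tsr1, Mybbp1a, Nop2 and Pes1. Rrn3 held 2 copies. For 29 of the members' 37 promoter entries, a stretch at or just after the start occurs within a transcript in the gene annotation used here. Among the members with the E-box, the entries of Nop2, Imp4, Mybbp1a and Max had no such match. Whether the starts coincide with transcript starts was not checked. The 250 bases before the start follow for Nop2 at chr6:125131633-125131882 (plus strand), Rrn3 at chr16:13780449-13780698 (plus strand) and Imp4 at chr1:34439579-34439828 (plus strand), shown because each holds the E-box ahead of its start, in capitals:
Nop2: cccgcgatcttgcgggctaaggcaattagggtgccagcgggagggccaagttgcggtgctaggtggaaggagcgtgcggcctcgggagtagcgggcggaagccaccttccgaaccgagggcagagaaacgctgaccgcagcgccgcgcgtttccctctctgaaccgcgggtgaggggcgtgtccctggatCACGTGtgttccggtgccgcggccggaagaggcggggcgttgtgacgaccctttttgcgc
Rrn3: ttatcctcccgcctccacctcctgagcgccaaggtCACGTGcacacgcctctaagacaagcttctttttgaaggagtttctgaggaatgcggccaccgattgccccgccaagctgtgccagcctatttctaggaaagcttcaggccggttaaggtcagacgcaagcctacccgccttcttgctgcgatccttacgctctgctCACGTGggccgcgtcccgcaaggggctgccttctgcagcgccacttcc
Imp4: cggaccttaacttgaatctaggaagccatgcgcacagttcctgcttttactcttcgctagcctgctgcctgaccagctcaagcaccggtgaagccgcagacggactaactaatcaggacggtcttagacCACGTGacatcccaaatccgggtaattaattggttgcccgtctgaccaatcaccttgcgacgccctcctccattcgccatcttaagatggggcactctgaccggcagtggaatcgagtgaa
Pes1, Utp20 and Max held it close to the start. So did Wdr43, Tsr1 and Mybbp1a, which are not shown. In the main test below, those shown were called lower with Pg in cKO and those left out were not called. For Pes1, Utp20 and Max, 30 bases around it follow, at chr11:3963965-3963994 (plus strand), chr10:88826765-88826794 (minus strand) and chr12:76962234-76962263 (minus strand):
Pes1: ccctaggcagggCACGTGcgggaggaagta
Utp20: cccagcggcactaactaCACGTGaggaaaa
Max: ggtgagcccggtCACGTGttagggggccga
Mxd1 and Nop58, the members whose Pg response differed between genotypes, had no CACGTG in their windows. The 250 bases before their starts are at chr6:86669160-86669409 (minus strand) and chr1:59684756-59685005 (plus strand):
Mxd1: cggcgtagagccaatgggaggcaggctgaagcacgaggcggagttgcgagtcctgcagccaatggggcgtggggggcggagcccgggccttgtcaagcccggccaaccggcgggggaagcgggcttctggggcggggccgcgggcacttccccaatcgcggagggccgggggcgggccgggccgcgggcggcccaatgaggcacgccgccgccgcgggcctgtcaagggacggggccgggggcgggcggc
Nop58: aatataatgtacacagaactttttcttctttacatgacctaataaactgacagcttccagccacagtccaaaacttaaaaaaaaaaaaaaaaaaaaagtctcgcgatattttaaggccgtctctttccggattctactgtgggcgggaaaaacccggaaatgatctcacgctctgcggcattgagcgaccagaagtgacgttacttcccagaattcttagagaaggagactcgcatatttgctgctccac

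The first comparison set Pg-exposed against control cells within each genotype. Myc mRNA rose 3.86-fold in cHet and 4.85-fold in cKO, Mxd1 rose in both, and the 37 ribosome biogenesis genes split between small rises and small falls. In cHet, 11 of the 40 members rose (27.5%) and 4 fell (10%), against 18.0% higher and 18.0% lower (36.1% in all) among all 13800 genes by edgeR's quasi-likelihood test at an adjusted p under 0.05. In cKO, 5 rose (12.5%) and 8 fell (20%), against 16.9% and 17.1% (34.0% in all). The other 25 and 27 members did not pass the test. The members' median log2 change was 0.07 in cHet and -0.04 in cKO, beside -0.01 and -0.00 over all genes. Without the Myc network, 9 of 37 rose and 4 fell in cHet, and 3 rose and 7 fell in cKO.

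These counts depend on the scaling. Scaled to raw library totals instead of trimmed means (TMM), the median of all genes shifted to -0.25 in both genotypes, and calls over all genes went from 50% higher to 19.1% in cHet and from 49.7% to 18.7% in cKO. Under that scaling 5 members rose and 13 fell in cHet, and 3 rose and 21 fell in cKO. The calls this scaling added were all lower: Max, Polr1a, Rrn3, Ncl, Dkc1, Wdr75, Heatr1, Imp4 and Ddx18 in cHet, and Polr1c, Rrn3, Ncl, Mybbp1a, Nop58, Dkc1, Gar1, Wdr43, Wdr75, Heatr1, Imp4, Tsr1 and Bop1 in cKO. Changes are given relative to the TMM centre. Members called under both scalings were Myc, Ddx21, Nop58, Rrs1 and Ppan (higher) and Polr1b, Utp20, Nop2 and Pes1 (lower) in cHet. In cKO they were Myc, Mxd1 and Gnl3 (higher) and Max, Polr1a, Polr1b, Utp20, Nob1, Nop2, Pes1 and Ddx18 (lower). The summed level of 8 proliferation genes moved with Pg, from 533 to 659 CPM in controls to 809 to 861 under Pg. Of these 8 genes, 2 were called higher in cHet (25%, against 18.0% of all genes) and 1 in cKO (12.5%, against 16.9%). With library-size scaling 1 was called higher in cHet and 0 in cKO, with medians of 0.05 and -0.02. Mki67 (323 to 597 CPM) and Pcna (120 to 277) had the highest levels, and Top2a, the next, reached 35.8. The part of the proliferation genes in the members' changes was not tested.

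**Figure D1:**
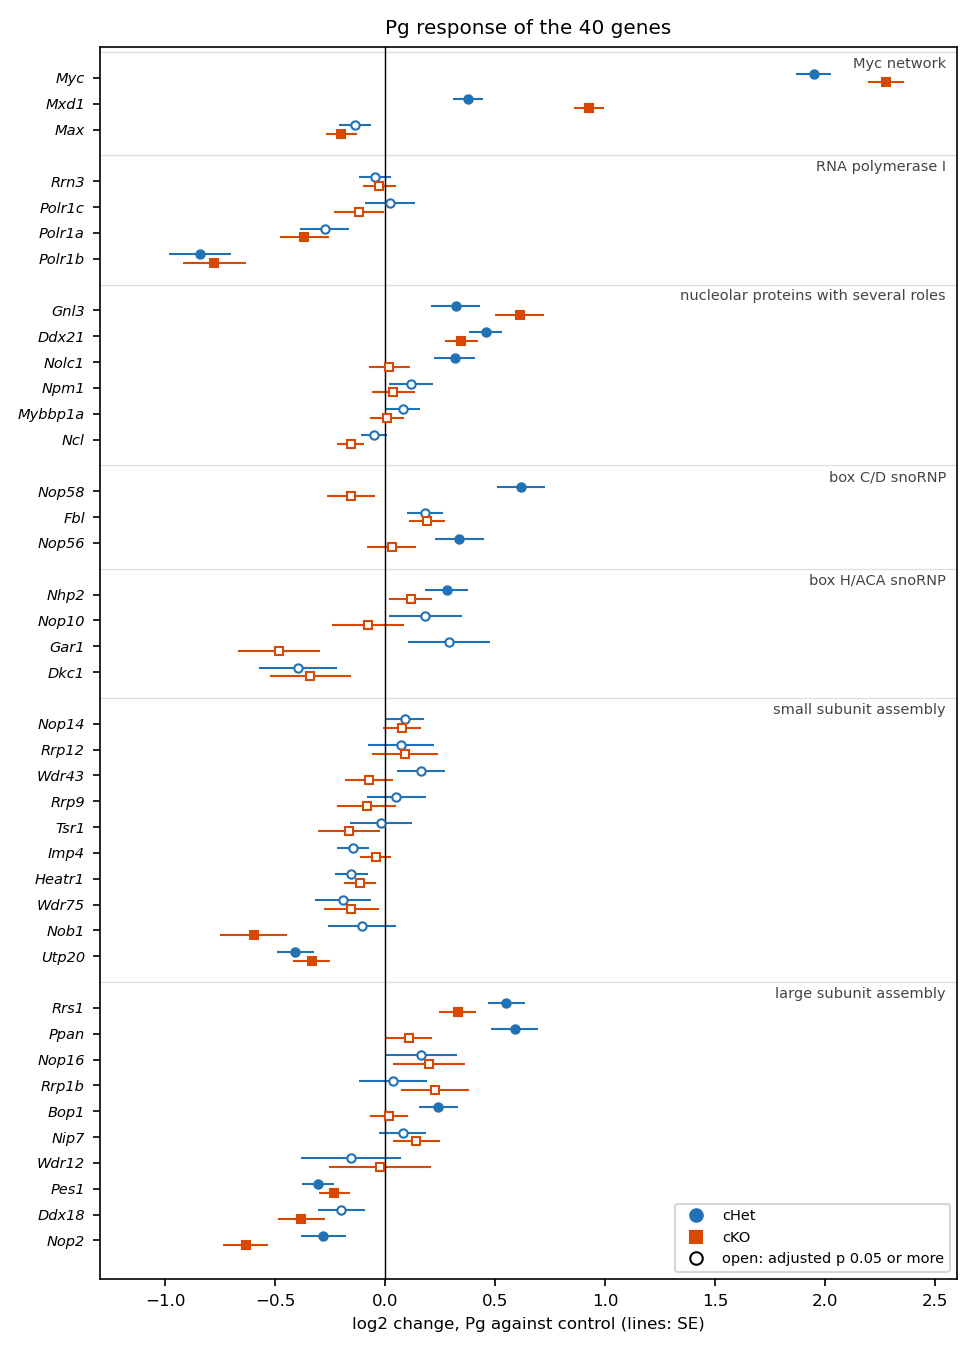
Log2 change with Pg for each of the 40 members in cHet and cKO (points; lines are the standard error; filled points have an adjusted p under 0.05). Myc lies far to the right in both genotypes, at 1.95 and 2.28, and Polr1b is the lowest in both, at -0.84 and -0.78.

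Within the Myc network, Myc (mm10, chromosome 15, 61985391 to 61990374, plus strand) was at 23.2, 22.1 and 23.0 CPM in cHet controls and at 97.0, 82.4 and 83.9 under Pg. The cKO libraries were at 20.1, 17.7 and 18.2 in controls and 86.1, 90.3 and 94.9 under Pg. Every Pg library lay far above every control library in both genotypes. The log2 change was 1.95 ± 0.08 (SE, n = 3 per group; edgeR adjusted p = 8.35e-12) in cHet and 2.28 ± 0.08 (edgeR adjusted p = 9.69e-13) in cKO. By size of rise, Myc ranked 199 of 13800 genes in cHet and 170 in cKO, so many other genes rose further.

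Mxd1 encodes a MAX partner that represses MYC targets (chromosome 6, 86647042 to 86669161, minus strand). It was at 103, 108 and 114 CPM in cHet controls and 126, 149 and 146 under Pg. Levels in cKO were 65.3, 61.0 and 61.3 in controls and 118, 121 and 117 under Pg. The groups did not overlap in either genotype, and the cKO controls were the lowest of the 4 groups. Its rise was 0.38 ± 0.07 in cHet (edgeR adjusted p = 0.000318), which fell to 0.13 and did not pass with library-size scaling (adjusted p = 0.13). In cKO it was 0.93 ± 0.07 (edgeR adjusted p = 1.51e-08).

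Max, the shared partner, was at 68.9, 64.3 and 65.6 CPM in cHet controls, with 55.2, 63.6 and 61.9 under Pg. For cKO the values were 72.5, 67.9 and 64.3 in controls and 59.2, 62.5 and 56.5 under Pg. Pg libraries were the lower ones in both genotypes. The change was -0.14 ± 0.07 in cHet (adjusted p = 0.154) and -0.20 ± 0.07 in cKO (edgeR adjusted p = 0.0408), and the cKO call was lost in DESeq2 (adjusted p = 0.0668), in a fit on the 2 cKO groups alone (0.0569) and without cKO control 1, cKO control 2, cKO Pg 1 or cKO Pg 3 (adjusted p 0.0904 to 0.152). Per kilobase of the deposited gene length (RPKM), Myc stood below both partners in cHet controls: Myc at 8.37, Mxd1 at 15.3 and Max at 18.4. Under Pg it stood above them, with Myc at 32.3, Mxd1 at 19.9 and Max at 16.7. The same order change was seen in cKO, where Myc went from 6.87 to 33.3 RPKM, Mxd1 from 8.84 to 16.8 and Max from 19.0 to 16.5.

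**Figure D2:**
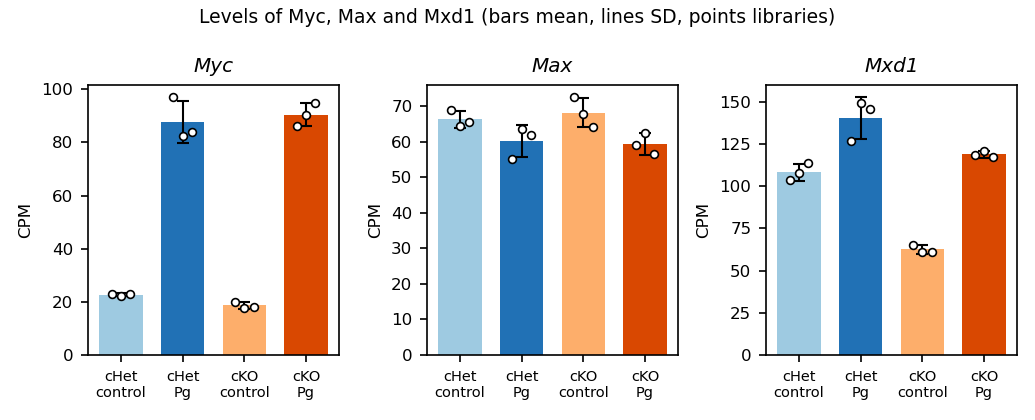
CPM of Myc, Max and Mxd1 in the 12 libraries (points; bars are group means, lines the SD over 3 libraries). Myc rises in both genotypes from a mean of 22.7 to 87.8 and from 18.7 to 90.4, and Mxd1 is lowest in cKO controls.

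A list of 8 tested relatives of these genes, the other MYC, MAX and MLX family genes, had 1 member that rose and 4 that fell in cHet, and 1 that rose and 2 that fell in cKO. These were 12.5% and 50% in cHet, beside 18.0% each way of all genes. In cKO they were 12.5% and 25%, beside 16.9% and 17.1%. The median changes were -0.37 and -0.19. Mxi1, another MAX partner and repressor, was the one that rose, by 1.32 ± 0.20 in cHet (edgeR adjusted p = 0.000504) and 1.61 ± 0.20 in cKO (edgeR adjusted p = 0.000161). Mnt, also a repressor, averaged 160 ± 7.20 CPM in cHet controls and 78.1 ± 10.2 (SD, n = 3) under Pg, a change of -1.04 ± 0.09 (SE; edgeR adjusted p = 9.66e-08). In cKO it averaged 109 ± 10.4 in controls and 86.5 ± 4.84 under Pg, a change of -0.33 ± 0.09 (SE; edgeR adjusted p = 0.00759) that was lost without cKO control 2 (adjusted p = 0.0655). Mga, which encodes a large MAX-binding protein, fell by 0.66 in cHet and 0.49 in cKO. Genes for MAX partners thus moved in opposite directions within 2 h, Mxd1 and Mxi1 up and Mnt and Mga down.

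None of the 4 RNA polymerase I members rose with Pg. Of these, 1 fell in cHet and 2 in cKO, and by either edgeR at an unadjusted p under 0.05 or DESeq2 the count that rose was 0 in both genotypes. Among all genes, edgeR called 18.0% higher and 18.0% lower in cHet, and 16.9% and 17.1% in cKO. The counts of this small group and of the role groups below stand beside these shares, and no test compared them. Polr1b, the second largest subunit, was at 12.8, 11.8 and 11.3 CPM in cHet controls and 6.04, 6.83 and 7.10 under Pg. In cKO it was at 9.58, 12.1 and 11.6 in controls and 7.60, 6.05 and 5.78 under Pg. All Pg libraries lay below all control libraries in both genotypes. The change was -0.84 ± 0.14 in cHet (edgeR adjusted p = 0.00018) and -0.78 ± 0.14 in cKO (edgeR adjusted p = 0.000425).

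Polr1a encodes the largest subunit. It was at 28.3, 25.6 and 25.0 CPM in cHet controls and 19.3, 23.5 and 22.3 under Pg, without overlap, but its change of -0.28 ± 0.11 did not pass (edgeR adjusted p = 0.0634). The cKO libraries were at 31.1, 27.5 and 24.3 in controls and 23.5, 21.9 and 18.7 under Pg, a change of -0.37 ± 0.11 (edgeR adjusted p = 0.0161) that did not pass without cKO control 1 (0.084) or cKO Pg 3 (0.083). Polr1c, a subunit shared with RNA polymerase III, changed by 0.02 and -0.12, and Rrn3, the initiation factor that brings the polymerase to its promoter, by -0.05 and -0.03. None of these 4 values passed. Among 10 other RNA polymerase I genes, 1 rose (10%) and 3 fell (30%) in cHet, and 3 fell (30%) in cKO. Of all genes, 18.0% were called lower in cHet and 17.1% in cKO. In cKO the count that rose among the 10 was 0 by edgeR, also at an unadjusted p under 0.05, and by DESeq2. Those that fell in both were Cd3eap, a polymerase subunit (-0.68 and -1.06), Taf1c, a subunit of the promoter selectivity factor (-0.69 and -0.70), and Ubtf, the upstream binding factor (-0.23 and -0.43). The cHet call of Ubtf was lost without cHet control 2, cHet Pg 2 or cHet Pg 3 (adjusted p 0.0955, 0.0695 and 0.0556).

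Of the 6 nucleolar proteins with several roles, 3 rose in cHet and 2 in cKO. Ddx21, an RNA helicase, was at 75.2, 65.1 and 62.8 CPM in cHet controls and 87.4, 98.6 and 92.8 under Pg. Levels in cKO were 85.8, 76.8 and 81.5 in controls and 108, 103 and 98.7 under Pg. The groups did not overlap in either genotype, and the cKO controls were above the cHet controls. The change was 0.46 ± 0.08 in cHet (edgeR adjusted p = 0.000151) and 0.34 ± 0.08 in cKO (edgeR adjusted p = 0.00178), the latter 0.10 and not passing with library-size scaling (adjusted p = 0.271).

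Gnl3 encodes nucleostemin, a GTP-binding nucleolar protein of proliferating cells. It was at 24.0, 22.7 and 22.5 CPM in cHet controls and 23.8, 30.7 and 31.9 under Pg, so that 1 Pg library fell within the control range. For cKO the values were 23.9, 18.8 and 21.1 in controls and 33.0, 29.9 and 34.4 under Pg, without overlap. The change was 0.32 ± 0.11 in cHet (edgeR adjusted p = 0.032), lost with library-size scaling (0.08, adjusted p = 0.592) and without cHet control 2 or 3 or cHet Pg 2 or 3 (adjusted p 0.0867 to 0.159), and 0.61 ± 0.11 in cKO (edgeR adjusted p = 0.00037). Nolc1, a chaperone of snoRNPs, rose in cHet by 0.32 ± 0.09 (edgeR adjusted p = 0.0132), lost with library-size scaling (0.07, adjusted p = 0.559) and without cHet control 3 or Pg 3 (0.0836 and 0.0628), and was at 0.02 in cKO. Ncl (nucleolin), Npm1 (nucleophosmin) and Mybbp1a, a MYB-binding nucleolar protein, did not pass in either genotype, with changes between -0.16 and 0.12; With library-size scaling Ncl passed as lower in both, at -0.30 (adjusted p = 0.000789) and -0.40 (4.93e-05), and Mybbp1a as lower in cKO, at -0.24 (0.0151). Npm1 had the highest level per length of all 40 members in cHet controls, 44.8 ± 5.63 RPKM (SD, n = 3).

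With TMM scaling, both kinds of snoRNP had their calls in cHet. Library-size scaling gave calls in cKO for both kinds, all lower. These were Nop58 at -0.40 (edgeR adjusted p = 0.00653), Dkc1 at -0.58 (0.0142) and Gar1 at -0.73 (0.00445). In cHet that scaling kept only the rise of Nop58 and called Dkc1 lower, at -0.64 (0.00642). Of the 3 box C/D genes, whose complex methylates ribosomal RNA, 2 rose in cHet, while in cKO the count called in either direction was 0 by edgeR and by DESeq2, with 1 higher at an unadjusted p under 0.05. Nop58 (chromosome 1, 59684971 to 59719044, plus strand), a core protein of that complex, was at 14.2, 14.7 and 14.5 CPM in cHet controls and 20.1, 26.0 and 20.6 under Pg. In cKO it was at 19.3, 18.4 and 21.8 in controls and 17.1, 17.7 and 18.6 under Pg. Its cHet control libraries were the lowest of all 12. The change was 0.62 ± 0.11 in cHet (edgeR adjusted p = 0.000272) and -0.16 ± 0.11 in cKO (edgeR adjusted p = 0.295).

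Nop56, the paired core protein, rose in cHet by 0.34 ± 0.11 (edgeR adjusted p = 0.0259), lost with library-size scaling (0.09, adjusted p = 0.516) and without cHet control 2 or 3 or cHet Pg 2 or 3 (adjusted p 0.0707 to 0.124), and was at 0.03 in cKO. Fbl encodes fibrillarin, the methyltransferase. It was at 32.8, 30.8 and 29.2 CPM in cHet controls and 31.7, 37.3 and 36.2 under Pg. The cKO libraries were at 33.4, 30.2 and 31.2 in controls and 35.6, 37.6 and 34.9 under Pg. The Pg libraries were mostly the higher ones, yet the changes of 0.18 ± 0.08 and 0.19 ± 0.08 did not pass (edgeR adjusted p = 0.0956 and 0.0857).

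Of the 4 box H/ACA genes, whose complex makes pseudouridine, 1 rose in cHet, and in cKO the count called was 0 by edgeR and by DESeq2, with 1 lower at an unadjusted p under 0.05. Nhp2, an RNA-binding core protein, was at 36.0, 29.7 and 29.4 CPM in cHet controls and 34.1, 38.4 and 43.1 under Pg. Levels in cKO were 34.3, 30.1 and 33.1 in controls and 35.9, 36.2 and 33.4 under Pg. Control and Pg libraries overlapped in both genotypes. The change was 0.28 ± 0.10 in cHet (edgeR adjusted p = 0.0328) and 0.11 ± 0.10 in cKO (adjusted p = 0.409). The cHet value was 0.04 with library-size scaling (adjusted p = 0.773), and the call was lost in a fit on the 2 cHet groups alone (0.0599) and without cHet control 2 or 3 or cHet Pg 2 or 3 (0.0733 to 0.189). Dkc1, the pseudouridine synthase, was at 7.51, 8.10 and 6.23 CPM in cHet controls and 4.36, 6.69 and 5.56 under Pg. For cKO the values were 6.96, 5.23 and 5.72 in controls and 4.71, 4.77 and 4.68 under Pg. Its levels were low and its changes of -0.40 ± 0.18 and -0.34 ± 0.18 did not pass (edgeR adjusted p = 0.0922 and 0.168). Gar1 was at 0.29 ± 0.19 and -0.48 ± 0.19, and Nop10 at 0.18 and -0.08, also without passing. With library-size scaling Dkc1 passed as lower in both genotypes, and Gar1 as lower in cKO.

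Among the 10 small subunit assembly genes, 1 fell in cHet and 2 in cKO, and the count that rose was 0 in both by edgeR, also at an unadjusted p under 0.05, and by DESeq2. Utp20, a scaffold of the small subunit processome, was at 29.5, 29.2 and 27.8 CPM in cHet controls and 20.6, 23.6 and 21.0 under Pg. In cKO it was at 30.1, 28.3 and 29.8 in controls and 21.8, 25.0 and 23.2 under Pg. Controls and Pg libraries were fully apart in both genotypes. The change was -0.41 ± 0.08 in cHet (edgeR adjusted p = 0.00105) and -0.33 ± 0.08 in cKO (edgeR adjusted p = 0.00504).

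Nob1 is the nuclease that makes the last cut in small subunit RNA. It was at 7.62, 8.10 and 7.53 CPM in cHet controls and 6.39, 6.69 and 8.51 under Pg, which overlapped. The cKO libraries were at 10.2, 9.84 and 11.3 in controls and 8.14, 5.62 and 6.88 under Pg, without overlap. The change was -0.11 ± 0.16 in cHet (adjusted p = 0.643) and -0.60 ± 0.15 in cKO (edgeR adjusted p = 0.00558). The difference between these responses did not pass the interaction test (-0.49 ± 0.22, edgeR adjusted p = 0.351). The remaining 8 (Nop14, Wdr43, Wdr75, Heatr1, Imp4, Rrp9, Rrp12 and Tsr1), parts of the processome or factors that mature the small subunit, ranged from -0.19 for Wdr75 to 0.16 for Wdr43 in cHet. In cKO they ranged from -0.17 for Tsr1 to 0.09 for Rrp12.

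The 10 large subunit assembly genes had 3 higher and 2 lower in cHet (30% and 20%), beside 18.0% each way of all genes. In cKO 1 was higher and 3 lower (10% and 30%), beside 16.9% and 17.1%. Rrs1, which helps to place a ribonucleoprotein particle in the large subunit, was at 47.0, 45.4 and 39.2 CPM in cHet controls and 64.1, 61.7 and 66.7 under Pg. Levels in cKO were 38.7, 41.1 and 46.4 in controls and 55.8, 49.3 and 53.5 under Pg. No control library reached the Pg range in either genotype. Rrs1 rose by 0.55 ± 0.08 in cHet (edgeR adjusted p = 6.86e-05) and by 0.33 ± 0.08 in cKO (edgeR adjusted p = 0.00591), the latter 0.09 and not passing with library-size scaling (adjusted p = 0.437).

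Nop2 encodes a methyltransferase of large subunit RNA and went the other way. It was at 20.4, 19.1 and 18.5 CPM in cHet controls and 14.9, 16.2 and 16.6 under Pg. For cKO the values were 20.1, 21.4 and 21.7 in controls and 13.1, 15.4 and 12.2 under Pg. Both genotypes were without overlap. The change was -0.64 ± 0.10 in cKO (edgeR adjusted p = 0.000123). In cHet it was -0.28 ± 0.10 (edgeR adjusted p = 0.0387), and leaving out any single one of the 6 cHet libraries ended the call (adjusted p 0.0513 to 0.144), as did DESeq2 (adjusted p = 0.0589) and a fit without a filter on low counts (0.0526).

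Pes1, a core member of the PeBoW complex that processes large subunit RNA, fell in both, by 0.31 in cHet (edgeR adjusted p = 0.00278) and 0.23 in cKO (edgeR adjusted p = 0.0176), the latter lost without cKO Pg 3 (adjusted p = 0.0872). Its partner Bop1 was at 0.24 ± 0.09 in cHet (edgeR adjusted p = 0.0381), a value of -0.00 with library-size scaling, and at 0.02 in cKO, a value of -0.23 with that scaling (adjusted p = 0.0443). The cHet call was also lost without a filter on low counts (0.0918) and without cHet control 2 or 3 or cHet Pg 2 or 3 (adjusted p 0.0626 to 0.163). The third partner, Wdr12, was at -0.16 and -0.02 without passing. Whether the 3 genes of 1 complex moved differently was not tested. Ppan, a large subunit assembly factor, rose in cHet from 13.1, 12.5 and 12.5 CPM to 18.6, 18.9 and 19.8 (0.59 ± 0.11, edgeR adjusted p = 0.000339) and was at 0.11 ± 0.11 in cKO (adjusted p = 0.49). Ddx18, an RNA helicase, was at -0.20 ± 0.11 in cHet (adjusted p = 0.161) and fell in cKO by 0.38 (edgeR adjusted p = 0.00957). Nop16, Rrp1b and Nip7 did not pass in either genotype, with changes from 0.03 to 0.22.

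**Figure D3:**
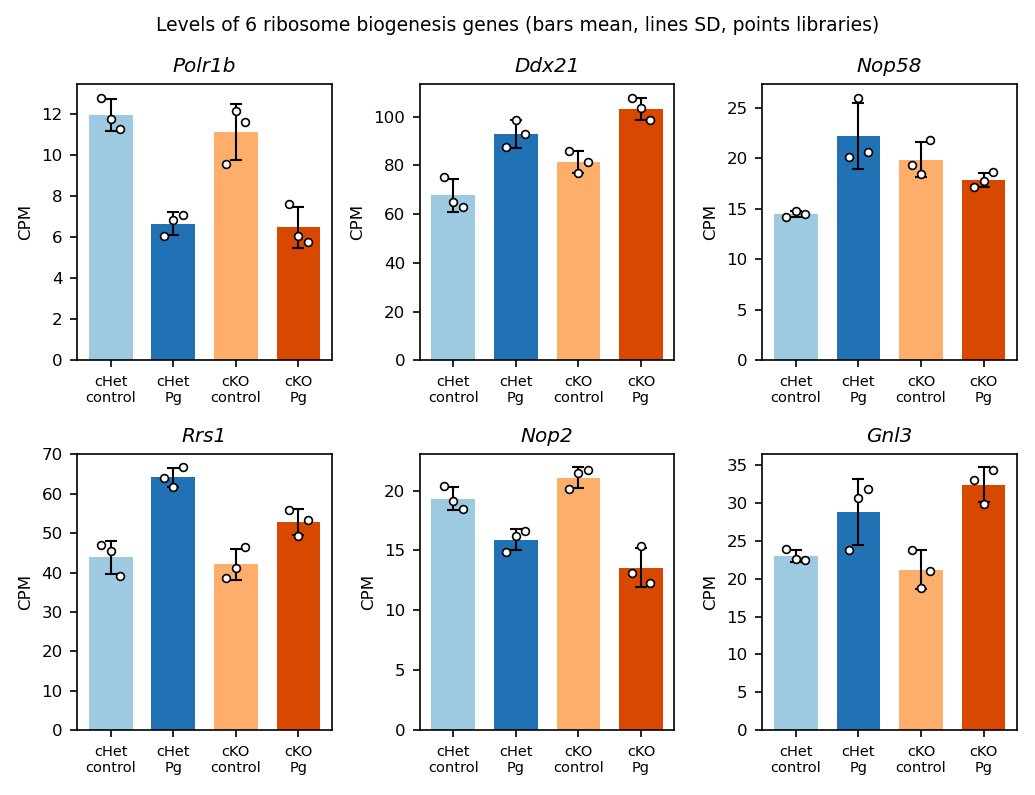
CPM of Polr1b, Ddx21, Nop58, Rrs1, Nop2 and Gnl3 in each library (points; bars are group means, lines the SD over 3 libraries). Polr1b falls from a mean of 11.9 to 6.66 in cHet and from 11.1 to 6.47 in cKO, Rrs1 rises in both genotypes, and Nop58 rises in cHet from 14.5 to 22.2.

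Calls in the 2 genotypes, which share no libraries, overlapped. Myc, Mxd1, Gnl3, Ddx21 and Rrs1 were called higher in both, 5 of the 11 called higher in cHet (45.5%, against 69.2% of all genes called higher there) and 5 of the 5 in cKO (100%, against 74%). Polr1b, Utp20, Nop2 and Pes1 were called lower in both, 4 of the 4 in cHet (100%, against 65.3%) and 4 of the 8 in cKO (50%, against 68.9%). The sign was the same for 34 of 40 members (85%, against 77.2% of all genes), and 21 were called in neither (52.5%, against 54.3%). Across the 40 genes, which share libraries and depth within a genotype, the 2 responses had a Pearson r of 0.845, and 0.678 across the 37 without the Myc network, beside 0.786 over all 13800 genes.

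**Figure D4:**
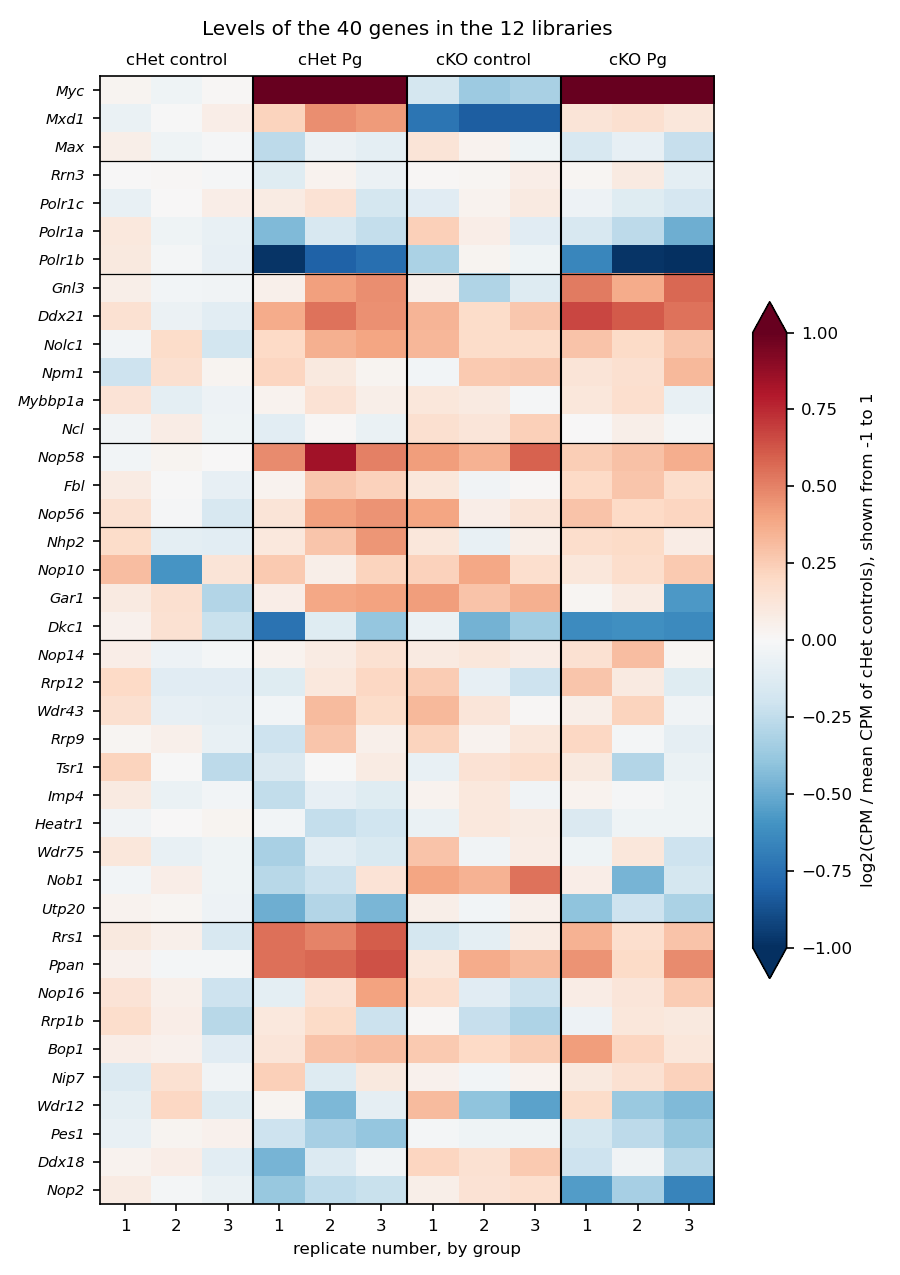
Log2 CPM of the 40 members in the 12 libraries relative to the cHet control mean (colour; rows grouped by role, columns by group). The Myc row shows the strongest rise under Pg in both genotypes, and the Mxd1 row is lower in the 3 cKO controls.

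The wider pathway was described with lists of genes that are not members. Among 35 other small subunit assembly genes, 4 rose and 9 fell in cHet, and 1 rose and 13 fell in cKO, with medians of -0.12 and -0.18. Among 35 other large subunit genes, 3 rose and 7 fell in cHet, and 3 rose and 13 fell in cKO, with medians of -0.06 and -0.22. Of 11 RNA exosome genes, which trim ribosomal RNA, 2 fell in cHet and 4 in cKO, Exosc4 and Exosc7 in both, and the count that rose was 0 in both by edgeR, also at an unadjusted p under 0.05, and by DESeq2. The shares called lower in the 3 lists were 25.7%, 20% and 18.2% in cHet, beside 18.0% of all genes. In cKO they were 37.1%, 37.1% and 36.4%, beside 17.1%. Called higher were 11.4%, 8.57% and 0% in cHet, beside 18.0%, and 2.86%, 8.57% and 0% in cKO, beside 16.9%. With library-size scaling, where the median of all genes was -0.25, 22, 19 and 7 genes fell in cHet. In cKO 25, 24 and 7 then fell. No test compared the lists with other genes. Eif6, which keeps new large subunits from joining small ones, rose by 0.65 and 0.67, and Gtpbp4, a nucleolar GTPase, by 0.66 and 0.44, the latter not passing with library-size scaling (0.20, adjusted p = 0.0683). Utp4, of the processome, rose by 0.57 and 0.52, whereas Pdcd11 and Krr1, of the same particle, fell in both genotypes by 0.32 and 0.31 and by 0.42 and 0.53. Surf6, a large subunit factor, fell by 0.47 and 0.61.

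A list of 20 other genes widely used as MYC targets outside ribosome production had 9 higher and 3 lower in cHet and 5 higher and 2 lower in cKO, with medians of 0.23 and 0.06. The shares were 45% higher and 15% lower in cHet, beside 18.0% each way of all genes. In cKO they were 25% and 10%, beside 16.9% and 17.1%, and no test compared them. The list was chosen with earlier results of these data known, so its shares are not independent of them. With library-size scaling the counts were 5 higher and 4 lower in cHet (median -0.01). In cKO they were then 4 higher and 6 lower (median -0.18). Odc1, the rate-limiting enzyme of polyamine synthesis, averaged 156 ± 7.82 CPM in cHet controls and 604 ± 114 (SD, n = 3) under Pg, a log2 change of 1.95 ± 0.11 (SE; edgeR adjusted p = 8.33e-09). In cKO it changed by 2.14 ± 0.11 (edgeR adjusted p = 3.14e-09), so its rise was close in size to that of Myc in each genotype. Eif4e, which binds the mRNA cap, rose by 1.54 ± 0.09 and 1.19 ± 0.09. Tfrc, the transferrin receptor, fell by 0.84 and 0.86.

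Set against the promoter sequences members with the E-box were among those that fell or were not called. Of the 9 with CACGTG, 3 fell in cHet (Utp20, Nop2 and Pes1) and 4 in cKO (the same 3 and Max), and the count that rose was 0 in both by edgeR, also at an unadjusted p under 0.05, and by DESeq2. By DESeq2 the counts that fell were 2 in cHet, without Nop2, and 3 in cKO, without Max. Among all genes, edgeR called 18.0% higher and 18.0% lower in cHet, and 16.9% and 17.1% in cKO. Of the 25 with a promoter but no CACGTG, 8 rose and 1 fell in cHet, and 3 rose and 4 fell in cKO. Median changes were -0.14 and -0.17 with the motif and 0.08 and -0.08 without. Myc, Rrs1 and Bop1, called higher in cHet, and Myc and Rrs1, called higher in cKO, had no promoter entry. Whether they hold the motif is therefore not known here. The shares are of all genes, with or without the motif. These are descriptions of 34 genes with no test, and a match is not evidence of binding.

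A further feature of the gene models was the small nucleolar RNA (snoRNA) genes that some members carry inside them. The annotation placed 23 snoRNA genes on the same strand within 8 of the 40 members (20%), against 1.78% of 13789 tested genes. The 8 hosts were Ncl, Gnl3, Nop56, Nop58, Dkc1, Wdr43, Tsr1 and Ppan, with 5 snoRNA genes in Nop56 and 4 in Nop58. In cHet, 4 of the 8 hosts rose (Gnl3, Nop56, Nop58 and Ppan), and the count that fell was 0 by edgeR and by DESeq2, with 1 at an unadjusted p under 0.05. In cKO 1 host rose, Gnl3, with the same counts for falls. Among all genes, 18.0% were called higher and 18.0% lower in cHet, and 16.9% and 17.1% in cKO. The absence of falls depended on the scaling. With library-size scaling the hosts Ncl and Dkc1 were called lower in cHet, and the rises of Gnl3 and Nop56 were lost. That scaling called Ncl, Nop58, Dkc1, Wdr43 and Tsr1 lower in cKO. Of the 32 members without one, 7 rose and 4 fell in cHet, and 4 rose and 8 fell in cKO. Exons of 16 members overlap another gene on the opposite strand, among them Polr1a, Gnl3, Mybbp1a, Nop56, Dkc1, Nhp2, Pes1 and Bop1. The strand setting of the counting is not given in the sources used here, so reads of such pairs may be shared.

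The second comparison set cKO against cHet cells in the same condition. Of all 40 members, Mxd1 and Nop58 differed between control cells, in opposite directions. In controls 1 member was higher in cKO (2.5%, against 2.13% of all genes) and 1 was lower (2.5%, against 3.02%), where 5.15% of all genes were called, with a median difference of 0.05 beside 0.00 over all genes. The member that was lower was Mxd1, with a mean of 108 ± 5.06 CPM in cHet and 62.5 ± 2.43 (SD, n = 3) in cKO. All 3 cKO controls lay below all 3 cHet controls, and the difference was -0.79 ± 0.07 (SE; edgeR adjusted p = 1.69e-06). This call held when any 1 of the 6 libraries was left out (highest adjusted p 3.82e-05).

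The member that was higher was Nop58, with a mean of 14.5 ± 0.273 CPM in cHet controls and 19.9 ± 1.72 in cKO controls. Its groups did not overlap, and the difference was 0.46 ± 0.11 (edgeR adjusted p = 0.021). The call was lost without cHet control 1, 2 or 3 (adjusted p = 0.0552, 0.0587 and 0.0754) or without cKO control 3 (0.119). Myc itself was lower in all 3 cKO controls than in any cHet control, at 17.7 to 20.1 against 22.1 to 23.2 CPM, and its difference of -0.28 ± 0.08 did not pass (edgeR adjusted p = 0.058). Without a filter on low counts its adjusted p was 0.044. Ddx21 was at 0.26 ± 0.08 (edgeR adjusted p = 0.0523), a difference that passed in DESeq2. Of the pathway lists, Mnt was lower in cKO controls (-0.56 ± 0.09, edgeR adjusted p = 0.00093), as was Mlxip, an MLX partner (-0.26, edgeR adjusted p = 0.0472), named after its value was seen, while Krr1 (0.28, edgeR adjusted p = 0.0489) and Eif4e (0.39, edgeR adjusted p = 0.0169) were higher. The Mlxip and Krr1 calls were each lost in 5 of 6 fits with 1 control library left out (highest adjusted p 0.212 and 0.17), Mlxip passing without cHet control 2 and Krr1 without cKO control 1. Both were also lost with library-size scaling (0.0581 and 0.0567). The Eif4e call was lost when either cHet control 2, cHet control 3, cKO control 1 or cKO control 3 was left out (adjusted p 0.06 to 0.103).

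Under Pg no member passed the test between genotypes. The count called was 0 of 40 in either direction by edgeR and by DESeq2, against 0.652% higher and 1.20% lower (1.85% in all) over all genes, and at an unadjusted p under 0.05 it was 0 higher and 5 lower. The median difference was -0.01. Mxd1 was still lower in cKO, at 117 to 121 against 126 to 149 CPM without overlap, a difference of -0.24 ± 0.07 (edgeR adjusted p = 0.0915). Myc was at 86.1 to 94.9 in cKO and 82.4 to 97.0 in cHet, a difference of 0.04 ± 0.07 (edgeR adjusted p = 0.883). Nop58, at 17.1 to 18.6 in cKO and 20.1 to 26.0 in cHet, differed by -0.32 ± 0.11 without passing (edgeR adjusted p = 0.197).

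The interaction test asked whether the Pg response itself differed between genotypes, and it uses the same libraries as the other comparisons. Of the 40 members, 1 had a larger response in cKO (2.5%, against 0.457% of all genes) and 1 a smaller one (2.5%, against 0.261%), where 0.717% of all genes were called. Mxd1 rose further in cKO, by 0.93 against 0.38, a difference of 0.55 ± 0.10 (edgeR adjusted p = 0.0115), which passed without any 1 of the 12 libraries (highest adjusted p 0.0475). Its cKO mean started lower and remained lower, at 119 ± 1.91 CPM under Pg against 140 ± 12.2 in cHet. Nop58 went the other way, 0.62 in cHet and -0.16 in cKO, a difference of -0.77 ± 0.15 (edgeR adjusted p = 0.0243) that did not pass without any 1 of 6 libraries: cHet control 2 or 3, cHet Pg 2, cKO control 3, or cKO Pg 1 or 2 (adjusted p 0.0598 to 0.0924).

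The other members did not pass this test. The Myc response was larger in cKO by 0.33 ± 0.11 (edgeR adjusted p = 0.203), and those of Gar1 and Ppan were smaller by -0.78 ± 0.26 (edgeR adjusted p = 0.204) and -0.48 ± 0.15 (edgeR adjusted p = 0.172). Among the pathway lists Mnt differed, with a fall of 1.04 in cHet and 0.33 in cKO, a difference of 0.71 ± 0.13 (edgeR adjusted p = 0.0116) that did not pass without cHet control 3 (adjusted p = 0.0513) or cKO control 3 (0.0508). Mxd1 and Mnt were thus both lower in cKO controls and differed in their Pg response, Mxd1 with the larger rise and Mnt with the smaller fall in cKO. The stromal markers, 29.2 to 37.2 CPM in cHet and 2.12 to 5.23 in cKO in sum, moved with genotype in both conditions. Their part in the genotype differences of Mxd1, Nop58 and Mnt was not tested.

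The 4 libraries that stand apart could be left out of every comparison, which leaves 2 per group. This choice was made after seeing the data, and it keeps libraries for being alike, which lowers the spread by construction. Without them 14 members rose and 4 fell in cHet, and 6 rose and 5 fell in cKO. In controls 2 were then higher (Nop58 and Ddx21) and 2 lower (Mxd1 and Myc), and under Pg 1 was lower (Mxd1, -0.29, edgeR adjusted p = 0.00251). The Mxd1 and Nop58 interactions were 0.57 and -0.87, and those of Myc (0.42, edgeR adjusted p = 0.0232) and Ppan (-0.63, edgeR adjusted p = 0.0293) also passed.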

How the data were processed

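Poly(A) RNA-seq of 12 libraries was compared, 3 for each of 2 genotypes with and without Pg. The authors deposited whole-number read counts per gene, made with fastp, HISAT2 2.0.5 and featureCounts 1.5.0-p3 on mm10 per the submitters' processing notes; the annotation release and strand setting were not given. Counts were analysed as deposited in R 4.3.3 with edgeR 4.0.16: filterByExpr, TMM scaling, a robust quasi-likelihood fit of all 4 groups, and Benjamini-Hochberg adjustment over 13800 genes with a threshold of 0.05. Errors of log2 changes are SEs. CPM uses TMM-scaled totals, and RPKM the deposited gene length. The fit was tested on simulated data. Alternatives were DESeq2 1.42.0, RLE and library-size scaling, no filter, a fit on 2 groups, a replicate block, each library left out, and, added after seeing the data, 4 libraries left out. Replicates differed beyond sampling noise in every group. The members and gene lists were chosen with earlier results of these data known. Values in every library are given for Myc, Max, Mxd1 and, from each other role, the 2 members with the largest mean Pg change; from other lists up to 3 genes of smallest p with Pg in cHet are named. Promoters are RefSeq's, on GRCm38.p6.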

Additional observations from a re-analysis of the deposited data

Results flagged for a closer look

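Mxd1 and Nop58 are singled out because their response to Pg differed between genotypes in a direct test of the difference. Mxd1 rose by 0.38 in cHet and 0.93 in cKO on the log2 scale, a difference of 0.55 (edgeR adjusted p = 0.0115). Nop58 changed by 0.62 in cHet and -0.16 in cKO, a difference of -0.77 (edgeR adjusted p = 0.0243). The Nop58 difference did not pass in 6 of the 12 fits with 1 library left out (edgeR adjusted p 0.0598 to 0.0924). That of Mxd1 passed in all 12. In all 3 cKO controls Mxd1 was below, and Nop58 above, every cHet control.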

How the results depend on the processing

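With library-size scaling, members higher and lower were 5 and 13 in cHet (median -0.17) and 3 and 21 in cKO (median -0.28), and Bop1 (-0.0019 in cHet, -0.23 in cKO) and Mybbp1a (-0.24 in cKO) changed sign; the median of all genes was then -0.25 in both genotypes. In controls, members higher in cKO were 2 with RLE scaling, with library-size scaling, without a filter and with DESeq2, and members lower were 2 without a filter. Without the 4 libraries that stand apart, the cHet median was 0.15, members lower with Pg in cKO were 5, genotype differences were 2 higher and 2 lower in controls and 1 lower under Pg, and interactions were 2 and 2; the cause was not tested.

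Leaving out 1 library at a time gave 6 to 12 members higher and 3 to 4 lower in cHet (median 0.05 to 0.13), 5 higher and 5 to 9 lower in cKO (-0.08 to -0.02), 0 to 1 higher and 1 to 2 lower in controls (0.037 to 0.13), 0 higher and 0 to 1 lower under Pg (-0.073 to 0.034), and 1 higher and 0 to 1 lower for the interaction (-0.10 to -0.02). The cHet count higher was 7, 6, 7 and 6 without cHet control 2, control 3, Pg 2 and Pg 3, and the cKO count lower was 5 without cKO Pg 3.

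Called in every planned setting were Myc, Ddx21, Nop58, Rrs1 and Ppan (higher) and Polr1b, Utp20 and Pes1 (lower) in cHet, Myc, Mxd1 and Gnl3 (higher) and Polr1b, Utp20, Nob1, Nop2 and Ddx18 (lower) in cKO, and Mxd1 in controls and in the interaction. Over all genes, the counts of 711, 255 and 99 for controls, Pg and interaction were 1101, 507 and 389 without a filter and 1422, 771 and 868 without the 4 libraries, 259 for the interaction with DESeq2, and 319 to 591, 153 to 259 and 42 to 207 with 1 library left out. The labels tie same-numbered libraries to no shared source, and their deviations correlated at r -0.254 to 0.319, not above 0.1 in every pair of any comparison, so the numbers were not used to pair libraries. With the replicate block, members higher and lower were 10 and 3 in cHet, 5 and 7 in cKO, 1 and 1 in controls, 0 and 0 under Pg and 1 and 1 for the interaction; Max in cKO (adjusted p = 0.0579) and Bop1 and Nop2 in cHet (0.0501 and 0.0523), and Mlxip and Krr1 in controls (0.0745 and 0.0661), did not pass in that fit. The lowest count of a member was 50, for Gar1, so counting error limits such genes most.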
